A study of Mus musculus with 2 samples.

Results

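Zfp36, Zfp36l1 and Zfp36l2 are the 3 members of the ZFP36 family of RNA-binding proteins considered here, and they were described through the Notch1 binding peaks that lie around them in gamma delta T cells of the mouse thymus. A peak was chosen by its position, if it touched the body of a member gene or lay within 100 kb of any of the gene's transcription start sites in the GENCODE M21 annotation. That rule took 17 of the 5910 peaks on nuclear chromosomes, 7 at Zfp36, 4 at Zfp36l1 and 6 at Zfp36l2. The series held 1 chromatin immunoprecipitation library (ChIP-seq) made with a rabbit monoclonal antibody against Notch1 (clone D1E11) and 1 input library made with no antibody. The mice were wild type C57BL/6 animals of postnatal day 0 to 3, both libraries used their primary thymic gamma delta T cells, and how many animals were pooled is not given in the sources used here. The stated aim was to locate the binding sites of the Notch1 intracellular domain. The 3 genes were picked with peaks of this list already known, so peak numbers, positions and scores are given as a description without a test. With 1 Notch1 library there is no replicate, the input library is not analysed here, and the read depth is unknown.

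ZFP36 proteins carry a pair of CCCH zinc fingers that bind AU-rich elements in the 3′ untranslated regions (UTRs) of messenger RNAs, and they recruit deadenylases and decapping factors that destroy the bound message. Zfp36, also called tristetraprolin, is an immediate early gene whose loss in mice causes inflammation through excess tumour necrosis factor. Zfp36l1 and Zfp36l2 act in lymphocyte development. Mice that lack both in the T lineage develop thymic leukaemia with raised Notch1. Notch1 itself is a receptor on the cell surface. Ligand binding frees its intracellular domain, which reaches DNA in the nucleus through the protein RBPJ, and RBPJ recognises the core TGGGAA.

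The sequences under the peaks are shown first. The highest peak at Zfp36 (905 bp wide) held no RBPJ core, and the highest peaks at Zfp36l1 (1334 bp) and Zfp36l2 (537 bp) held 2 and 1. The other nuclear peaks held 0.973 cores per kb, so counts this small do not set the genes apart, and the difference was not tested. All sequences are from GRCm38 (mm10). The 3 genes are all transcribed from the minus strand, and the first set is printed on that strand, 5′ to 3′, in the direction of the genes. Capitals mark, in order, the AP-1 motif TGANTCA, the GATA motif AGATAA and the RUNX motif TGTGGT (read here as its reverse complement) in the centre of the highest peak at Zfp36, chr7:28382958-28383257. In the second sequence, chr7:28382278-28382401, they mark CACGTG, an E-box bound by HES and MYC proteins. In the third, chr12:80113014-80113159, which is the part of the promoter peak before the start of Zfp36l1, they mark an AP-1 motif. In the fourth, chr17:84180339-84180443, they mark both RBPJ cores of a peak downstream of Zfp36l2.
Zfp36 highest peak: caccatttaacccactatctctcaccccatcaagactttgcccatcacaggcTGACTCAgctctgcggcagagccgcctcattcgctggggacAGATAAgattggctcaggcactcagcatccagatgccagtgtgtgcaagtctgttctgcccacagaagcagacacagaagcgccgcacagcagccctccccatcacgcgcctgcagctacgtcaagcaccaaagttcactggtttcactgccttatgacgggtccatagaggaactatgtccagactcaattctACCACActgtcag
Zfp36 second upstream peak: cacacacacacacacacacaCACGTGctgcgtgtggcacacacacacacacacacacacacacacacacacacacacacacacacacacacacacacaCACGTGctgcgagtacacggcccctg
Zfp36l1 promoter peak: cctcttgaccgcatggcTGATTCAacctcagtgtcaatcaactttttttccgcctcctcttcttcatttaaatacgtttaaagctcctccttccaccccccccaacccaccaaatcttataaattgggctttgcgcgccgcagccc
Zfp36l2 farthest peak of the cluster: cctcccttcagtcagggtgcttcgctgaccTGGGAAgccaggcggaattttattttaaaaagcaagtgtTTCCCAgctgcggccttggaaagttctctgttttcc

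The 17 peaks held 8 copies of the RBPJ core, and these are shown because the core is the sequence through which Notch1 is known to reach DNA. Each is printed with 12 bases on either side, on the strand that reads TGGGAA, with the core in capitals. They lie at chr12:80114438-80114467 and chr12:80115380-80115409 (Zfp36l1), at chr17:84180357-84180386, chr17:84180396-84180425, chr17:84182160-84182189 and chr17:84184997-84185026 (Zfp36l2), and at chr7:28384106-28384135 and chr7:28398626-28398655 (Zfp36), in the order of the lines.
Zfp36l1 upstream peak, near the gene: ggcctcgaatgcTGGGAAgaaacgtgcgag
Zfp36l1 upstream peak, far from the gene: gcccgggggatcTGGGAAggcgtaggaaat
Zfp36l2 downstream peak, plus strand: caaggccgcagcTGGGAAacacttgctttt
Zfp36l2 downstream peak, minus strand: gcttcgctgaccTGGGAAgccaggcggaat
Zfp36l2, nearest of the peaks past its 3′ end: tcctgctatccaTGGGAAaagcagcaggca
Zfp36l2 peak in the 3′ UTR: gttcatagttgtTGGGAAataagtgcttca
Zfp36, outermost of the 4 grouped upstream peaks: ccctgcctgactTGGGAActtgtattggtc
Peak inside Paf1: aaaccagcaaatTGGGAAgaagatgaaaga

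At Zfp36 the binding lay mostly upstream of the gene. Zfp36 (ENSMUSG00000044786) occupies chromosome 7 from 28376784 to 28380253, and its outermost GENCODE start site is at 28380253. A second GENCODE start lies at 28379255, and the RefSeq start lies close to it at 28379228. A group of 4 peaks spanned the stretch from 1372 to 3950 bp upstream of the outermost start. The nearest of them, from 28381625 to 28381875, scored 1175, and the next, from 28382028 to 28382618, scored 1823. The highest, from 28382655 to 28383559, is 905 bp wide and scored 3100, and the outermost, from 28383787 to 28384203, scored 529. The score is the authors' own value for each peak, on a scale that is not stated, and serves here only to describe and rank peaks and genes within the list. Its median over nuclear peaks was 718. The lowest score of the group was thus at its outer edge, next to the highest. Measured from the RefSeq start, the nearest and the highest peak began 2397 and 3427 bp away. All 4 peaks of the group lay under Gm44710, an antisense transcript.

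Another Zfp36 peak lay at the other end of the gene. It spanned 28376690 to 28377437, scored 1680, and had 654 of its 748 bp in the 3′ UTR of Zfp36 and 94 bp beyond the annotated end. No peak at Zfp36 lay within 1 kb of a start site of the gene. The remaining 2 peaks taken by the rule lay at other genes. The peak from 28299657 to 28300065 (score 800) was 79.2 kb from Zfp36 and 1707 bp from a start of Dll3, a Notch ligand gene, and inside that gene. The peak from 28398371 to 28398732 (score 693) was 18.1 kb from Zfp36 and covered a start site of Paf1, which encodes a subunit of a complex that travels with RNA polymerase II.

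At Zfp36l1 every peak lay over the start of the gene or just upstream. Zfp36l1 (ENSMUSG00000021127) occupies chromosome 12 from 80107754 to 80113013, and its outermost start at 80113013 is the same in GENCODE and RefSeq. The first peak, from 80112697 to 80113159, scored 1512 and covered the start site. It took in 146 bp before the start, 138 bp of 5′ UTR, 57 bp of coding sequence and 122 bp of intron. The same peak also overlapped Gm26669, so by position it cannot be given to Zfp36l1 alone. The second peak, from 80113251 to 80113786, scored 1410, and the next, from 80114327 to 80115660, scored 3100 and was 1334 bp wide. The outermost, from 80115831 to 80116250, scored 612. The peak of 3100 was also the widest of the family, and it began 1314 bp before the start of Zfp36l1. It lay 203 bp from a start of the long noncoding RNA 1300014J16Rik, and the outermost peak covered a start of that RNA, so these upstream peaks cannot be given to Zfp36l1 alone by position. The next peak in the list lay outside the window, 193 kb from Zfp36l1 and nearer to Actn1, with a score of 632.

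Zfp36l2 had the opposite arrangement, with no peak upstream of its start in the window. Zfp36l2 (ENSMUSG00000045817) occupies chromosome 17 from 84183931 to 84187947 and starts at 84187947 in both annotations. The peak nearest the start, from 84186580 to 84186978, scored 657, lay 969 bp inside the gene, and was coding sequence over its whole 399 bp. The highest peak of the gene, from 84184879 to 84185415, scored 2213 and lay with all of its 537 bp in the 3′ UTR. A further 3 peaks lay downstream of the gene, 1710 to 3341 bp past its 3′ end. Going away from the gene they scored 709 (84181933 to 84182221), 1555 (84180819 to 84181386) and 656 (84180205 to 84180590). A last peak, from 84116477 to 84116862 with a score of 755, lay 71.1 kb from the start of Zfp36l2, which was still the nearest coding start site. The nearest peak outside the window lay 144 kb away toward Thada and scored 624. AC132455.1, an antisense transcript, starts 341 bp from the peak in the 3′ UTR and overlaps the peak in the coding sequence.

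**Figure D1:**
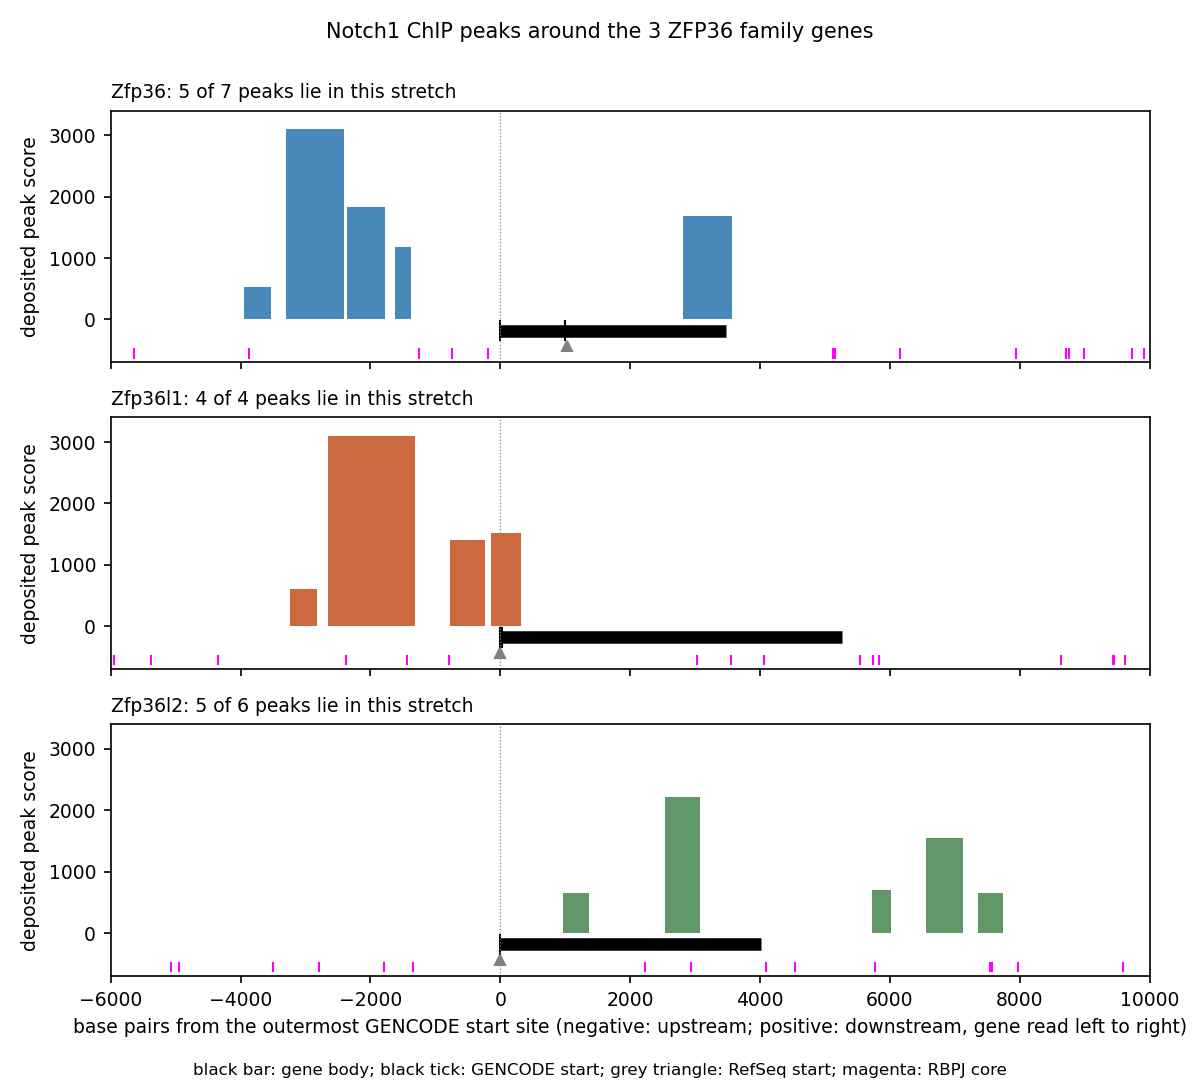
Peaks around each gene, with distance from the outermost GENCODE start site in base pairs on the x axis (negative values upstream) and the deposited peak score on the y axis; each block is 1 peak drawn to its width, the black bar is the gene, black ticks and grey triangles are GENCODE and RefSeq starts, and magenta ticks are RBPJ cores. The blocks of Zfp36 stand upstream and over the 3′ end, those of Zfp36l1 over the start and upstream, and those of Zfp36l2 over the gene and past its 3′ end.

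The map of the peaks shows that the 3 genes shared a dense group of peaks and differed in its side. Within 10 kb of a start site, Zfp36 had 4 peaks upstream, 0 over the start and 1 downstream of it. Zfp36l1 had 3 upstream, 1 over the start and 0 downstream. Zfp36l2 had 0 upstream, 0 over the start and 5 downstream. Both Zfp36 and Zfp36l2 carried a peak whose midpoint lay in their own 3′ UTR, the RNA segment through which messages are targeted for decay. Such peaks made up 2 of 17 in the family (11.8%, Wilson 95% interval 3.29 to 34.3) and 119 of the 5893 other nuclear peaks (2.02%, 1.69 to 2.41). The rule takes every peak that touches the body of a member, while the other peaks were not held to lie near a gene. The 2 shares are therefore not like for like. The interval covers counting error only and takes the 17 peaks as independent, although they lie at 3 genes. The difference was not tested because the peaks were chosen with their positions known. ChIP peaks mark DNA, and a peak at a 3′ UTR says nothing of the RNA.

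By score the family lay toward the top of the list with members at both ends. The 17 family peaks ranged from 529 to 3100 with a median of 1175, beside a median of 717 for the other nuclear peaks. The upper quartile of the list began at 904, and 9 of the 17 family peaks (52.9%) lay in it. The 3100 of the highest Zfp36 peak and of the highest Zfp36l1 peak was shared by 36 nuclear peaks, and 4 nuclear peaks scored more. That shared value may be a ceiling of the scoring, so these 2 peaks cannot be ordered against each other. The lowest family peak, at Zfp36 with 529, ranked 5621 of 5910. The lowest peaks at Zfp36l1 (612) and Zfp36l2 (656) ranked 5042 and 4133. Each dense group thus held peaks of low score as well as of high score. The median score per gene was 1175 at Zfp36, 1461 at Zfp36l1 and 732 at Zfp36l2.

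**Figure D2:**
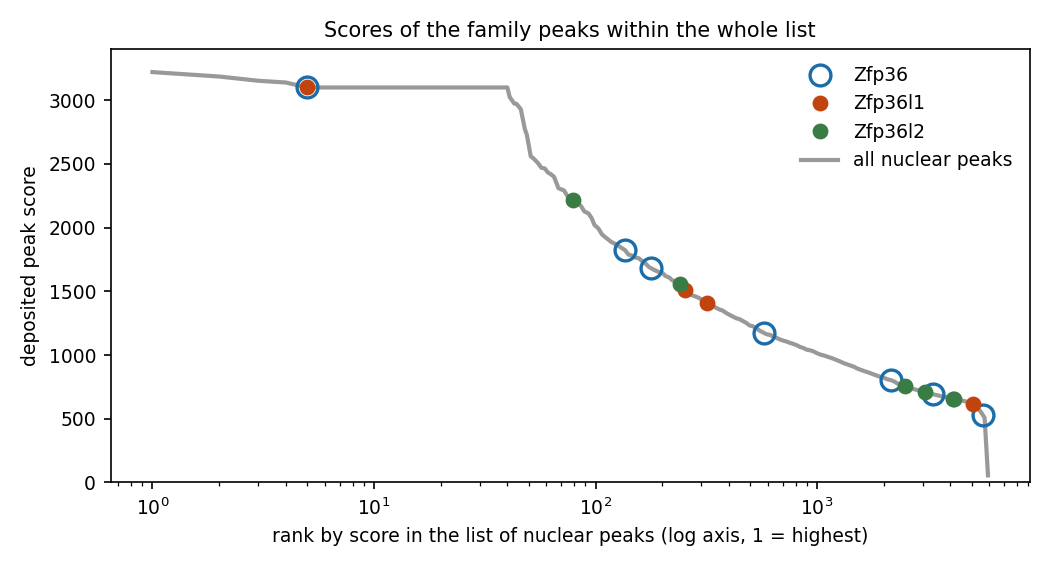
Deposited peak score on the y axis against rank within the 5910 nuclear peaks on a log x axis; circles are the peaks of the 3 genes and the grey line is the whole list. The flat part of the line is the score of 3100, where 1 Zfp36 and 1 Zfp36l1 peak lie, and the lowest circle is the Zfp36 peak of 529.

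Peaks stood close together at these genes, which were picked with their peaks known. Of the 17 family peaks 11 (64.7%) had another peak less than 1 kb away, beside 520 (8.82%) of the other nuclear peaks. Dense groups were not particular to the family, as Junb, Nr4a1 and Selplg had 7 peaks each within 5 kb. The smallest gap in the family, 36 bp, separated the highest upstream peak of Zfp36 from its neighbour on the side of the gene. Peak numbers depend on where a caller divides a region, so they were also counted after joining peaks less than 1 kb apart, a choice made after seeing the data. The peaks of Zfp36l1 then formed 1 region of 3554 bp, the 4 upstream peaks of Zfp36 1 region of 2579 bp, and the 3 peaks past Zfp36l2 1 region of 2017 bp. Among protein-coding genes, 16 had a joined region within 5 kb at least as wide as that of Zfp36l1, that gene included.

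Beside all 21938 protein-coding genes, few carried as many peaks. A peak in the same kind of window was found at 46.2% of those genes and a peak within 5 kb of a start site at 8.81%. Zfp36 had 5 peaks within 5 kb, a number reached by 15 genes (0.0684%), itself included. Zfp36l1 had 4, reached by 30 genes (0.137%), and Zfp36l2 had 2, reached by 290 genes (1.32%). In the whole window Zfp36 had 7 peaks and Zfp36l2 had 6, reached by 0.52 and 0.775% of genes, and the 4 of Zfp36l1 were less unusual, with 782 genes (3.56%) at 4 or more. Within 1 kb of a start site Zfp36 had 0 peaks, Zfp36l1 2 and Zfp36l2 1, where 5.16% of genes had any. Within 20 kb they had 6, 4 and 5, where 17.7% of genes had any. Counting only peaks at or above the median score, they had 4, 3 and 1 within 5 kb, where 5.07% of genes had any. The summed score in the window was 9799 at Zfp36, 6634 at Zfp36l1 and 6545 at Zfp36l2, sums that 55, 105 and 111 genes equalled or exceeded. Such a sum has no unit and serves only to order genes in this list. Counted as joined regions, Zfp36l1 had 1 within 5 kb, no more than the 8.81% of genes with any, while Zfp36 and Zfp36l2 had 2 each (0.898% of genes had as many). Zfp36l3, the fourth mouse gene of the family and one known from placenta, had no peak in its window, and the nearest lay 2.9 Mb away on the X chromosome.

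**Figure D3:**
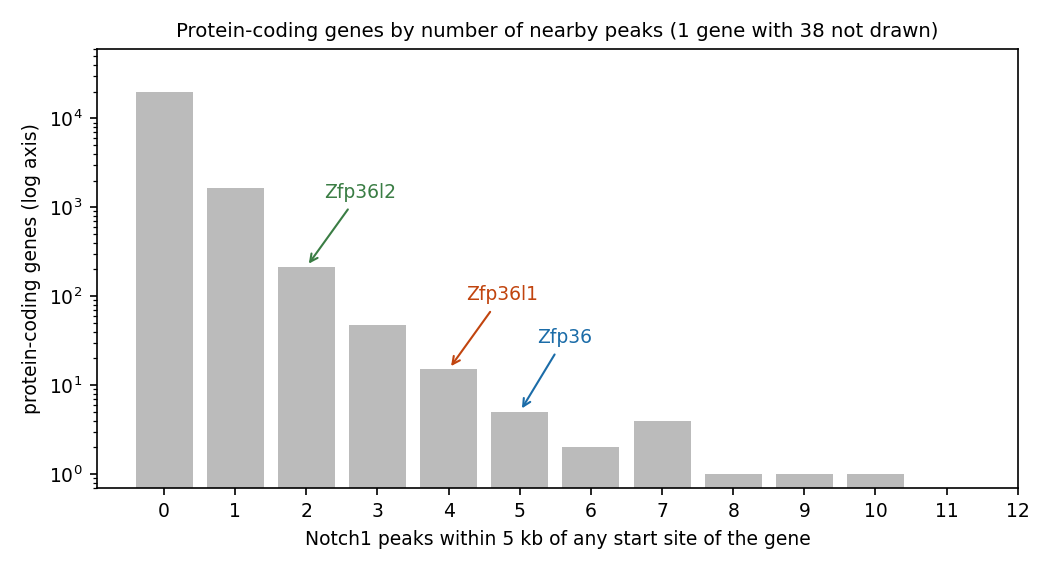
Number of protein-coding genes (y axis, log scale) by number of Notch1 peaks within 5 kb of any start site (x axis), without 1 gene, Sfi1, that has 38. Arrows mark the bars that hold Zfp36 (5 peaks), Zfp36l1 (4) and Zfp36l2 (2); most genes have 0.

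The 30 genes with at least 4 peaks within 5 kb fell into different kinds. Of these 30 genes, 10 were predicted genes with Gm names, most of them packed together on chromosome 9, where neighbours share the same peaks. The other 20 included Sfi1, which had the most peaks (38). Among them were also Junb (7 peaks), a subunit of AP-1, the nuclear receptor genes Nr4a1 (7) and Nr4a3 (5), and Selplg (7), which encodes a selectin ligand. Cnot6l (4) encodes a deadenylase of the complex that ZFP36 proteins recruit. These genes were named after their values were seen, and most of the 20 are not named here. By the likeness rule, which set number of peaks, summed score and highest score within 5 kb side by side as percentile ranks, Zfp36 was nearest to Prdx2 and Junb, which share their window of 8 peaks, and to Plaur (8 peaks). Zfp36l1 was nearest to Abhd4 and to the predicted genes Gm10800 and Gm10801, which share 1 set of 4 peaks. Zfp36l2 was nearest to Tex14, to Dusp10, a phosphatase gene of the MAP kinase pathway, and to Amz2, each with 6 peaks. The distances were at most 0.34 percentile points and rest on 1 library.

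The RBPJ core was no denser in the family peaks than in the rest of the list. It was present in 6 of the 17 family peaks (35.3%, Wilson 95% interval 17.3 to 58.7) and in 29.5% of the other nuclear peaks (28.3 to 30.7). The interval for the family takes its peaks as independent, although they lie at 3 genes. The family peaks were wider, with a median of 420 bp, against 370 bp in the others. Per kb of peak there were 0.889 copies in the family and 0.973 in the others. Both strands were searched, and the core also forms part of sites bound by Ikaros proteins. In RefSeq promoter windows (GRCm38), which are mostly the bases before a start, the core was present in 25.6% of 32851. These windows are shorter than the median peak of either set, so promoter shares, here and below, are not like for like with those of peaks. The longer form GTGGGAA was present in 0 of the 17 peaks and in 7.7% of the others. A pair of cores in opposite orientation 15 to 17 bases apart, the arrangement of paired Notch sites, was found in 0 of the 17 peaks and in 0.0509% of the others. No match says only that these letters are not in these windows.

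The positions of the cores are given by gene, on counts too small to set the genes apart. The peak of 3100 at Zfp36 held 0 cores, as did the other 2 peaks between it and the gene and the peak over the 3′ UTR. The peaks within 10 kb of Zfp36 held 1 core, in the weakest of them, 126 bp from that peak's midpoint. The peak of 3100 at Zfp36l1 held 2 cores, at -540 and 402 bp from its midpoint, and so toward its edges. The peaks of Zfp36l2 held 4 cores, and those of the outermost peak of the downstream group, 7357 bp from the start, faced each other with 33 bases between them, at -25 and 14 bp from the midpoint. The core on the plus strand overlaps an E-box, CAGCTG. The highest Zfp36l2 peak, in the 3′ UTR, held 1 core at -135 bp. Over the gene and 10 kb on either side, cores occurred at 0.343 per kb inside the peaks of Zfp36 and 1.12 per kb outside them. At Zfp36l1 the densities were 0.726 per kb inside peaks and 1.16 per kb outside. At Zfp36l2 they were 1.84 per kb inside peaks and 0.778 per kb outside, from 4 cores in peaks.

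Other motifs were unevenly shared among the 3 genes. RUNX factors and E proteins are regulators of early T cell development. The RUNX motif TGTGGT was in 6 of 17 family peaks (35.3%), against 26.9% of the others, with 5 copies at Zfp36, 0 at Zfp36l1 and 3 at Zfp36l2. Per kb of peak the direction was the opposite, with 0.889 copies in the family and 0.926 in the others. The E protein motif CAGCTG was in 6 family peaks (35.3%), against 15.5%, and 5 of its 7 copies lay at Zfp36l2. The E-box CACGTG was in 4 family peaks (23.5%), against 5.57%, and 2 of its 5 copies stood in the second upstream peak of Zfp36 where runs of alternating C and A end. The longest such run there was 64 bp. The second peak of Zfp36l1 held a run of 48 bp of alternating A and G. In RefSeq promoters TGTGGT was present in 16.8%, CAGCTG in 16.3% and CACGTG in 7.15%. Runs of at least 30 bp were present in 2 of 17 family peaks (11.8%) and in 6.65% of the others.

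The EGR motif and the KLF and SP motif, both rich in G and C, were found at Zfp36l1 and Zfp36 only. The EGR motif GTGGGCG was in 3 family peaks (17.6%), against 2.61% of the others, with 2 copies at Zfp36 and 2 at Zfp36l1. Of 11 copies of the KLF and SP motif GGGCGG 9 lay at Zfp36l1, 2 at Zfp36 and 0 at Zfp36l2, and 1 of those at Zfp36 overlaps an EGR motif. The KLF and SP motif was in 4 family peaks (23.5%), against 11.3%. The AP-1 motif was in 3 family peaks (17.6%), against 11.3%, with 2 copies at Zfp36, 1 at Zfp36l1 and 0 at Zfp36l2, and its copies per kb were 0.333 in the family and 0.327 in the others. ETS motifs (CCGGAA) were in 4 family peaks (23.5%), against 7.35%, with 1 copy at Zfp36, 1 at Zfp36l1 and 2 at Zfp36l2. In RefSeq promoters the EGR, KLF and SP, AP-1 and ETS motifs were present in 7.97, 35.7, 7.81 and 14.9%. The STAT motif TTCNNNGAA was in 1 family peak, and the TCF/LEF motif CTTTGA and the GATA motif were in 4 each, against 11.5, 25.5 and 20.7% of the others and 8.3, 16.0 and 11.2% of RefSeq promoters. Per kb of peak the GATA motif had 0.444 copies in the family and 0.655 in the others. The SRF motif was in 1 of the 17 family peaks (5.88%), against 1.78%, and the NF-kB motif in 2 (11.8%), against 4.31%. With 17 peaks, several of them wider and richer in G and C than most, none of these shares was tested.

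**Figure D4:**
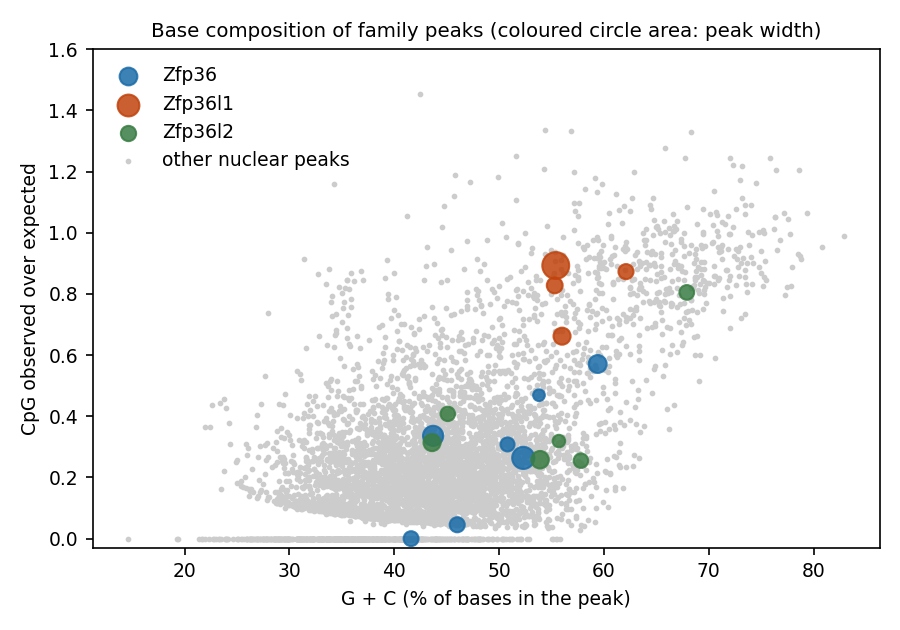
CpG observed over expected (y axis) against G + C content in percent (x axis). Coloured circles are the family peaks with area in proportion to peak width, and grey points are a sample of the other nuclear peaks. All 4 Zfp36l1 circles and 1 Zfp36l2 circle lie above a ratio of 0.6, and the Zfp36 circles lie below it.

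Base composition set the Zfp36l1 peaks apart from most of those at the other 2 genes. The G + C content of the family peaks had a median of 53.9%, against 43.9% in the others. A ratio of observed to expected CpG above 0.6, a usual mark of CpG islands, was reached by 5 family peaks (29.4%) and by 11.7% of the others. These 5 were the 4 peaks of Zfp36l1, at 0.662 to 0.893, and the coding-sequence peak of Zfp36l2, at 0.805. The Zfp36 peaks ranged up to 0.571, in the second upstream peak. The highest peaks differed too, with a CpG ratio of 0.264 at Zfp36, 0.893 at Zfp36l1 and 0.314 at Zfp36l2. Repeat sequence, as soft-masked in the assembly, made up a median of 16.6% of the family peaks and 15.5% of the others. The family maximum was 45.1%, in the weakest Zfp36 peak.

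The partners of ZFP36 proteins were counted next, as genes with a peak within 5 kb of a start site, a state reached by 8.81% of protein-coding genes with a median highest score of 757. Of 40 genes of the CCR4-NOT complex, decapping and the exosome, which carry out the decay, 12 had a peak (30%, Wilson 95% interval 18.1 to 45.4; median highest score 874). The highest were those of Cnot3 (1788), a CCR4-NOT subunit, Tob2 (1010), an adaptor of that complex, Cnot4 (1003), Dcp1b (954), a decapping cofactor, Cnot6l (887) and Btg1 (885), an antiproliferative adaptor. The peak of Eif4enif1, the weakest at 77, was nearer to a start of Sfi1. Of 24 other RNA-binding regulators of immune messages 7 had a peak (29.2%, 14.9 to 49.2; median 910). They included Igf2bp2 (1101), Elavl1 (999.7), which stabilises AU-rich messages, Hnrnpd (938), Celf1 (910.2), Arid5a (878) and Igf2bp3 (651).

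Regulators of the proteins themselves had the highest share, although the intervals of the 4 lists overlap. Of 19 kinases, phosphatases and 14-3-3 proteins that modify or hold ZFP36 proteins 8 had a peak (42.1%, 23.1 to 63.7; median 1107). They included Mapkapk3 (1379), a kinase of the p38 pathway that inactivates tristetraprolin, Mapk14 (822), which is p38 alpha, Dusp1 (1280), the phosphatase that opposes p38, Akt1 (1118), and the 14-3-3 genes Ywhae (1136) and Ywhag (1096). Of 35 genes whose messages are described as targets of the family 7 had a peak (20%, 10 to 35.9; median 836). These were Stat5b (1622), which transmits cytokine signals, Tnfaip3 (867), an inhibitor of NF-kB, Bcl6 (859), Pim1 (836), the ligand gene Dll4 (834), Vegfa (780) and, named after its value was seen, Fos (746). The Bcl6 peak was nearer to a start of the predicted gene Gm37419. The other 28 targets had none, and for cytokine genes singled out after their values were seen the nearest peak lay 7.3 kb from Il2, 17.5 kb from Tnf and 109 kb from Csf2. The shares describe lists written with results of these data known, and no test was made of them. Their intervals cover counting error only and are no test against the share of all genes.

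**Figure D5:**
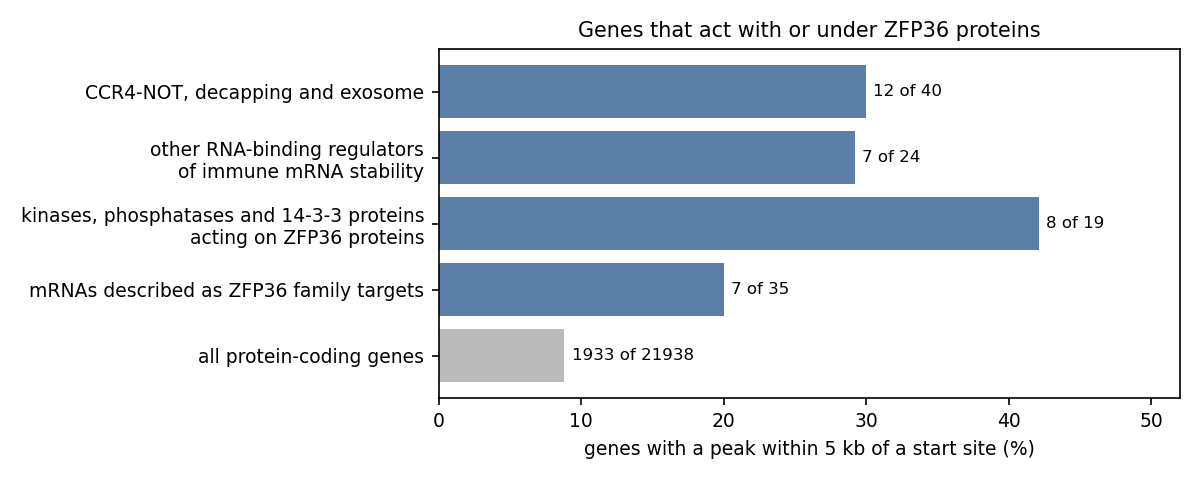
Share of genes with a Notch1 peak within 5 kb of a start site (x axis, percent) for 4 lists of genes that act with or under ZFP36 proteins and, in grey, for all protein-coding genes. Bars carry the counts, from 8 of 19 regulators of the proteins to 7 of 35 described targets, beside 8.81% of all genes.

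The labelled cell type was set against marker genes in the same way, although a peak does not measure expression. Of 14 matched gamma delta T cell genes 5 had a peak within 5 kb (Blk, Cd163l1, Tbx21, Il2rb and Il17f), against 0 of 8 alpha beta thymocyte genes, 0 of 8 B cell genes, 1 of 8 myeloid genes and 1 of 9 thymic stroma genes. Over all protein-coding genes the share was 8.81%. For lists of 8 or 9 genes, counts of 0 or 1 lie near that share and do not set those cell types apart. Only 14 of 19 listed gamma delta genes and 8 of 10 listed alpha beta genes could be matched. Each count rests on few genes, and a share of 0 of 8 has an upper Wilson limit of 32.4%. Their part in the peaks at the family was not tested.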

How the data were processed

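The deposited file is a peak list without a header, giving chromosome, start, end, a name that begins with MACS and a score. The authors' score has no stated scale in the sources used here. Bowtie 1.0.0, SAMtools 0.1.18 and build mm10 are listed in the submitters' processing notes. For the caller's version and settings, the use of the input, duplicate reads and depth, the answer is not given in the sources used here. Per the labels' protocols, cells were fixed in 0.5% formaldehyde for 5 min and libraries had 18 cycles of PCR, so duplicates and repeated sequence can affect a score.

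Intervals were read as BED, printed from 1, and set on GRCm38 with GENCODE M21 (0 nuclear peaks passed a chromosome end; 3 mitochondrial peaks were left out). Overlap was at least 1 bp, with Python 3.11.15. Counting of peaks and motifs was checked on simulated data. The members, lists and motifs were chosen with earlier results of these data known. Named genes were the members, nearest genes, up to 6 per list by score, Zfp36l3 and 3 most alike per member. Sequences were read from the RefSeq copy of GRCm38. Protein sequences were not used here. Each alternative altered a single choice, apart from the nearest-start setting for the gene lists, which altered both the assignment and the distance (50 kb, not 5 kb).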

Additional observations from a re-analysis of the deposited data

How the results depend on the processing

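No paired analysis was possible because the series has 1 Notch1 library, and no replicate could be left out. Of 70 recomputed counts 42 stayed within 1.5 times the value given and 28 did not. Of 17 family peaks, 4 remained in gene bodies alone (1 at Zfp36, 1 at Zfp36l1, 2 at Zfp36l2), 11 at or above the median score (3 at Zfp36l2), 9 in the upper quartile (4 at Zfp36, 2 at Zfp36l2), 9 under 20% soft-masked (4 at Zfp36, 2 at Zfp36l1, 3 at Zfp36l2) and 9 regions after joining peaks less than 1 kb apart (4 at Zfp36, 1 at Zfp36l1). Within 1 kb of a start site there were 0 peaks at Zfp36, 2 at Zfp36l1 and 1 at Zfp36l2. Zfp36l2 had 5 within 20 kb, and within 5 kb 1 peak of upper-quartile score and 1 at least at the median. The decay list counted 7 of 40 genes with a peak at or above the median score, where 5.07% of all genes had one. Within 1 kb, where 5.16% of all genes had a peak, the RNA-binding list counted 4 of 24 and the target list 4 of 35. The target list counted 14 within 20 kb (17.7% of all genes had one) and 11 by nearest start site up to 50 kb away (14.3%). The RBPJ core was in 2 family peaks over the central 200 bp (11.8%, against 17% of the others). Each of these settings admits fewer or more peaks or bases by its construction. Read depth is unknown, and no interval can be set on a score.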
